A study of Mus musculus with 21 samples.

Results

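The desmosome genes examined here are *Dsg1a*, *Dsg1b*, *Dsg3*, *Dsg4*, *Dsc1*, *Dsc2*, *Dsc3*, *Pkp1*, *Pkp3* and *Dsp*, 10 of the 55491 genes in the skin table. They were taken by gene symbol, and all 10 were among the 19101 genes with enough counts to be tested. RNA was measured in 9 skin libraries from mice at 12 months of age. WT skin came from BALB/c mice without the transgene (3 libraries, replicates 8, 9 and 10). *Ifnk* TG mice carry *Ifnk*, which encodes the type I interferon IFNκ, under the keratin 14 promoter, which is active in basal keratinocytes. They were made on C57Bl/6 and backcrossed to BALB/c, and the number of founders is not stated. Their skin was sampled as nonlesional (NL, 2 libraries, replicates 2 and 3) and lesional (L, 4 libraries, replicates 4 to 7). By the study's methods, NL skin was taken from the back and from sites matching those of lesions, which arose on the face, back and sometimes the limbs. All 9 skin libraries were untreated. Their titles name no batch, so whether they were processed together is not stated. The labels give neither the sex, the body site nor the mouse of a library, so the p-values measure the spread between libraries, and a difference of site cannot be told apart from the groups. *Xist*, which is expressed in females, exceeded 10 counts in 3 of 3 WT, 2 of 2 NL and 3 of 4 L libraries. With *Xist* as a covariate 6 members were called in L against WT, 4 in L against NL and 0 in NL against WT skin, the counts found without it. Of all tested genes 21.5%, 10.9% and 0% were called higher with this covariate, beside 23.0%, 13.2% and 0% without it. The series also holds 12 libraries of inguinal lymph nodes, 3 in each of 4 groups: untreated WT, untreated *Ifnk* TG, and both genotypes after repeated UVB irradiation of the skin. By the study's methods each dose was 250 mJ/cm2, given 3 times a week over 2 weeks. Tissue was collected after a further 2 weeks of observation.

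Desmosomes are plaques that fasten neighbouring keratinocytes to each other. Desmogleins (*Dsg*) and desmocollins (*Dsc*) are cadherins that span the membrane and bind those of the next cell, and their tails are held by plakoglobin and by plakophilins (*Pkp*), which join desmoplakin (*Dsp*) and through it the keratin filaments. The cadherins are layered: *Dsg3* and *Dsc3* are typical of the lower epidermis, desmoglein 1 and *Dsc1* of the upper layers, and *Dsg4* of the hair shaft and the uppermost layers. Desmoglein 1 and desmoglein 3 are the targets of autoantibodies in pemphigus.

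The cadherin genes lie side by side in GRCm38 (gene positions from GENCODE M21). On chromosome 18, from 19960930 to 20547459, the order is *Dsc3*, *Dsc2* and *Dsc1* on the minus strand, then *Dsg1c*, *Dsg1a*, *Dsg1b*, *Dsg4* and *Dsg3* on the plus strand, within 586.53 kb. *Pkp1* is on chromosome 1 (135871395 to 135919207, minus strand), *Pkp3* on chromosome 7 (141078218 to 141090510, plus strand) and *Dsp* on chromosome 13 (38151294 to 38198577, plus strand). Mice have 3 copies of desmoglein 1, and stretches of 100 bases that also occur in another gene made up 24.6% of *Dsg1a*, 32.8% of *Dsg1b* and 13.9% of *Dsg1c* exon sequence. The other members shared none. The split of reads between the *Dsg1* copies is an estimate of the authors' counting. *Dsg1a* was far above the other copies, so a small part of its reads given to them would weigh heavily there. How far the split moves each copy's value was not tested. *Dsp* overlaps an unconfirmed transcript on the other strand, *Gm10129*, over 499 exon bases.

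The skin libraries held between 40499078 and 56511276 counts, and 3 counts, taken as the floor, were between 5.31e-06% and 7.41e-06% of a library. These floors cover counting error only. Marker lists showed how the tissue differed between groups. Levels are given as CPM, counts relative to the TMM-normalised library size. The 12 epithelial identity genes summed to between 4575 and 5475 CPM in WT, 8131 and 8644 in NL, and 5369 and 10823 in L skin, with the lowest L value in replicate 7. The 11 hair shaft keratins summed to between 4.7 and 6.08 CPM in WT and to between 6.69 and 9.86 CPM in NL skin, but to between 2005 and 6363 CPM in L skin. Inner root sheath genes (9 in the list) followed with 97.2 to 130 CPM (WT), 186 to 195 CPM (NL) and 5657 to 21791 CPM (L). Skeletal muscle genes (10) ran the other way, at 34394 to 47414 CPM in WT and 32100 to 37398 CPM in NL skin but 31.2 to 9209 CPM in L skin, and so did adipocyte genes (8), at 8093 to 11633, 6791 to 7775 and 832 to 4342 CPM. L skin therefore held more RNA of hair shaft and inner root sheath genes than either other group. Summed muscle and fat RNA was lower than in either other group, but none of these genes passed the test used below against NL skin. The part of these shifts in the changes below was tested only where an alternative scaling is named.

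**Figure D1:**
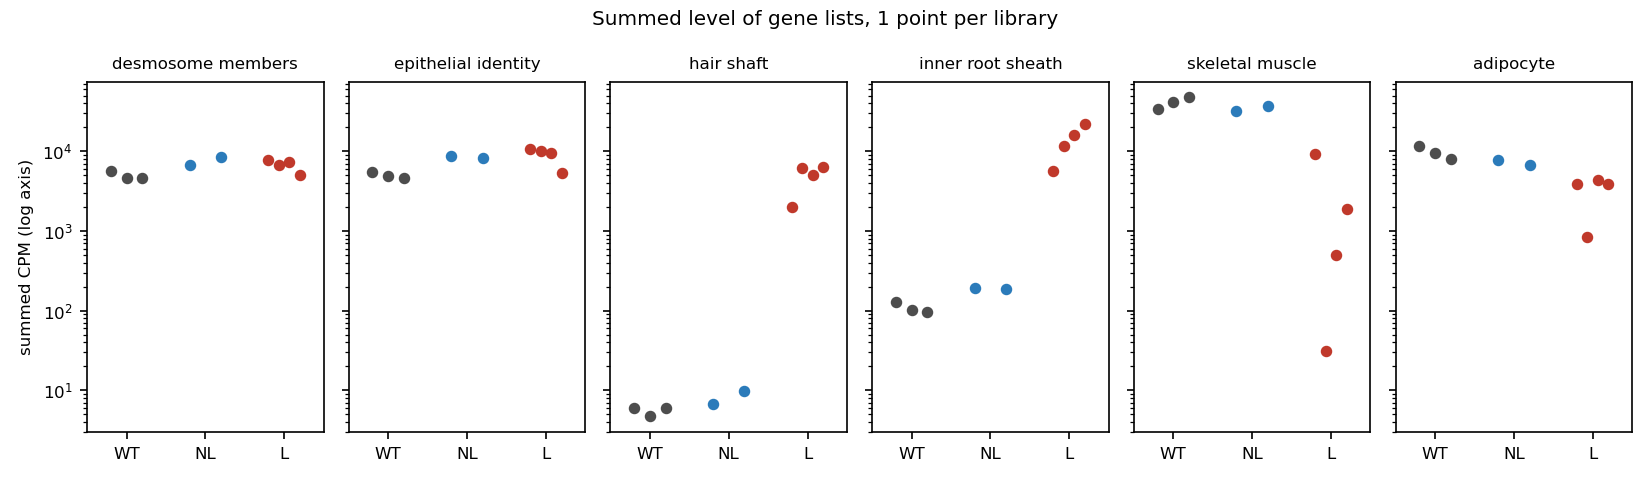
Summed CPM of 6 gene lists on a log axis, 1 point per skin library, for WT, NL and L skin. The 4 L libraries sit at 2005 CPM or more for hair shaft keratins while no WT or NL library exceeds 9.86 CPM, and for skeletal muscle genes no L library exceeds 9209 CPM.

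Levels per kilobase of exon, which can be compared between genes, put desmoplakin first in each group. In WT skin *Dsp* had 234 ± 21.9 CPM per kb (SD, n = 3) and *Dsg1a* 197 ± 36.0, and their ranges overlapped. *Pkp1* (104 ± 16.3) and *Dsc3* (84.0 ± 16.2) came next, also with overlapping ranges, then *Dsc1* (52.6 ± 7.29) and *Pkp3* (44.1 ± 5.02), which overlapped as well. Below them stood *Dsg3* (14.8 ± 1.43), *Dsg1b* (9.35 ± 0.608), *Dsc2* (1.3 ± 0.121) and *Dsg4* (0.0181 ± 0.0259), each with a range apart from its neighbours. The order in NL skin was the same. In L skin the bottom of the order closed up: *Dsg1b* (26.9 ± 5.06, n = 4), *Dsg3* (22.6 ± 6.83), *Dsg4* (19.0 ± 8.03) and *Dsc2* (17.0 ± 8.31) had overlapping ranges, and *Pkp3* (111 ± 6.35) stood beside *Dsc3* (118 ± 24.1) and *Dsc1* (102 ± 16.6).

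**Figure D2:**
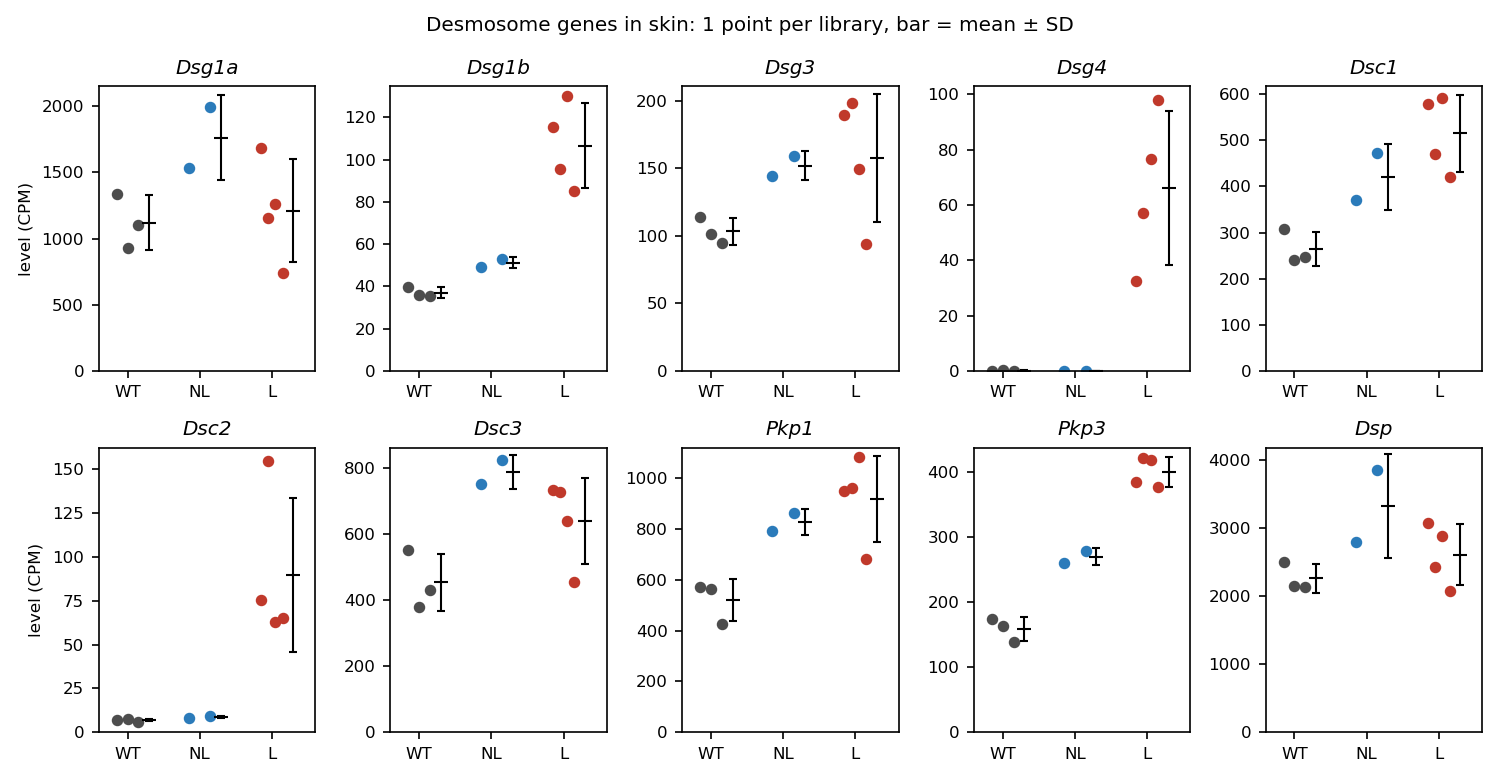
Level of each desmosome gene in CPM, 1 panel per gene with its own linear axis from 0, 1 point per library and a bar for the mean ± SD of the 3 WT, 2 NL and 4 L libraries. *Dsg4* and *Dsc2* are near the bottom of their panels in WT and NL skin and high in every L library, while *Dsg1a* and *Dsp* have overlapping WT and L points.

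To see which desmosome genes changed in lesions, L skin was compared with WT skin by edgeR's quasi-likelihood F-test, with a gene called when its Benjamini-Hochberg adjusted p over all tested genes was under 0.05. In L skin 6 genes rose: *Dsg4*, *Dsc2*, *Dsg1b*, *Pkp3*, *Dsc1* and *Pkp1*. None of the 10 fell. Of all tested genes 43.1% were called, 23.0% as higher and 20.2% as lower. For the 6 called members the lowest L value exceeded the highest WT value, as it did for 26.0% of all tested genes, and the WT and L libraries of the other 4 overlapped. The median log2 fold change of the 10 members was 0.89, beside 0.06 for all tested genes. In bulk skin, more cells of a type and more RNA per cell cannot be told apart.

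*Dsg4* (ENSMUSG00000001804), the desmoglein of the hair shaft cortex, changed most. WT libraries held 1, 7 and 0 counts of it, NL libraries 2 and 0, and L libraries 1789, 2317, 3476 and 5447. Nearly all of its RNA was therefore in L skin, where it reached 66.1 ± 27.9 CPM (SD, n = 4). Set against the 8 counts of all WT libraries together, the 13029 counts in L skin were 1048-fold higher after normalisation (95% exact counting interval 532 to 2429). The fitted log2 fold change was 9.97 (SE 0.78, adjusted p = 0.000119 from edgeR), and it was 12.14 without WT replicate 9, which held 7 of the 8 counts. The hair shaft keratins, given above, moved with *Dsg4*, and the part of follicle content in its level was not tested.

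*Dsg1b* (ENSMUSG00000061928), a minor copy of desmoglein 1, stood at 39.8, 35.9 and 35.5 CPM in WT skin, 49.3 and 53.0 CPM in NL skin, and 115, 95.4, 130 and 85.2 CPM in L skin. The 3 groups did not overlap. Its log2 fold change from WT to L skin was 1.52 (SE 0.15, adjusted p = 0.000214 from edgeR). *Dsg1a* (ENSMUSG00000069441), the main copy, had 1335, 926 and 1103 CPM in WT skin, 1536 and 1991 CPM in NL skin, and 1687, 1152, 1263 and 741 CPM in L skin. The L libraries spanned the whole WT range, and the log2 fold change was 0.11 (SE 0.27, adjusted p = 0.764). With *Dsg1a*, *Dsg1b* and the related *Dsg1c* added up as 1 gene, which does not depend on how reads were split between them, it was 0.19 (adjusted p = 0.586). *Dsg1a* makes up most of this sum, which therefore does not test *Dsg1b*.

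*Dsg3* (ENSMUSG00000056632), the desmoglein of the basal layers, was at 114, 101 and 94.6 CPM in WT and at 189, 198, 149 and 93.6 CPM in L skin. L replicates 4, 5 and 6 lay above all WT libraries and L replicate 7 lay below them. The log2 fold change was 0.61 (SE 0.23, adjusted p = 0.0638 from edgeR). Without L replicate 7, the L library with the lowest epithelial sum, it was 0.79 (adjusted p = 0.00273). Of 18 alternative fits this was the only one to call *Dsg3*.

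Among the desmocollins, *Dsc2* (ENSMUSG00000024331), which is the form found in simple epithelia and heart, rose most. It had 7.00, 7.41 and 6.16 CPM in WT skin, 8.33 and 9.22 CPM in NL skin, and 75.5, 155, 62.7 and 65.1 CPM in L skin. Every L library was several times above every other library, and L replicate 5 stood apart from the other 3. The log2 fold change from WT to L skin was 3.71 (SE 0.36, adjusted p = 0.000230 from edgeR). Hair shaft and inner root sheath RNA, given above, was also highest in the L libraries. The part of follicle content in the *Dsc2* level was not tested. *Dsc1* (ENSMUSG00000044322), the form of the upper epidermis, went from 308, 241 and 247 CPM in WT to 579, 470, 592 and 420 CPM in L skin. All 4 L libraries were above the WT range, with a log2 fold change of 0.96 (SE 0.17, adjusted p = 0.00261). *Dsc3* (ENSMUSG00000059898), the form of the basal layers and the largest of the 3, was at 551, 380 and 431 CPM in WT and at 735, 729, 639 and 455 CPM in L skin. L replicate 7 again fell within the WT range. The log2 fold change of *Dsc3* was 0.49 (SE 0.20, adjusted p = 0.0743), and 0.63 without L replicate 7 (adjusted p = 0.0146). Of 18 alternative fits this was also the only one to call *Dsc3*. Leaving out that library thus raised the number of called members from 6 to 8. Of all tested genes 23.1% were then called higher, beside 23.0% with it.

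Of the plaque genes, *Pkp3* (ENSMUSG00000054065), a plakophilin of all epidermal layers, had the narrowest spread. It was at 175, 164 and 139 CPM in WT, at 260 and 279 CPM in NL and at 385, 422, 419 and 377 CPM in L skin. The 3 groups formed separate steps. Its log2 fold change from WT to L skin was 1.33 (SE 0.11, adjusted p = 0.000127 from edgeR). *Pkp3* RNA was also present in all 12 lymph node libraries, at a median of 41.5 CPM. The part of immune cells in its skin level was not tested. *Pkp1* (ENSMUSG00000026413), the plakophilin of the suprabasal layers, was at 571, 564 and 426 CPM in WT and at 949, 959, 1080 and 680 CPM in L skin. No L library reached down to the WT range, and the log2 fold change was 0.82 (SE 0.19, adjusted p = 0.00794). *Dsp* (ENSMUSG00000054889), the linker to keratin, had 2505, 2145 and 2133 CPM in WT and 3069, 2424, 2874 and 2069 CPM in L skin. These overlapped, with a log2 fold change of 0.21 (SE 0.19, 95% interval -0.23 to 0.64, adjusted p = 0.414).

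**Figure D3:**
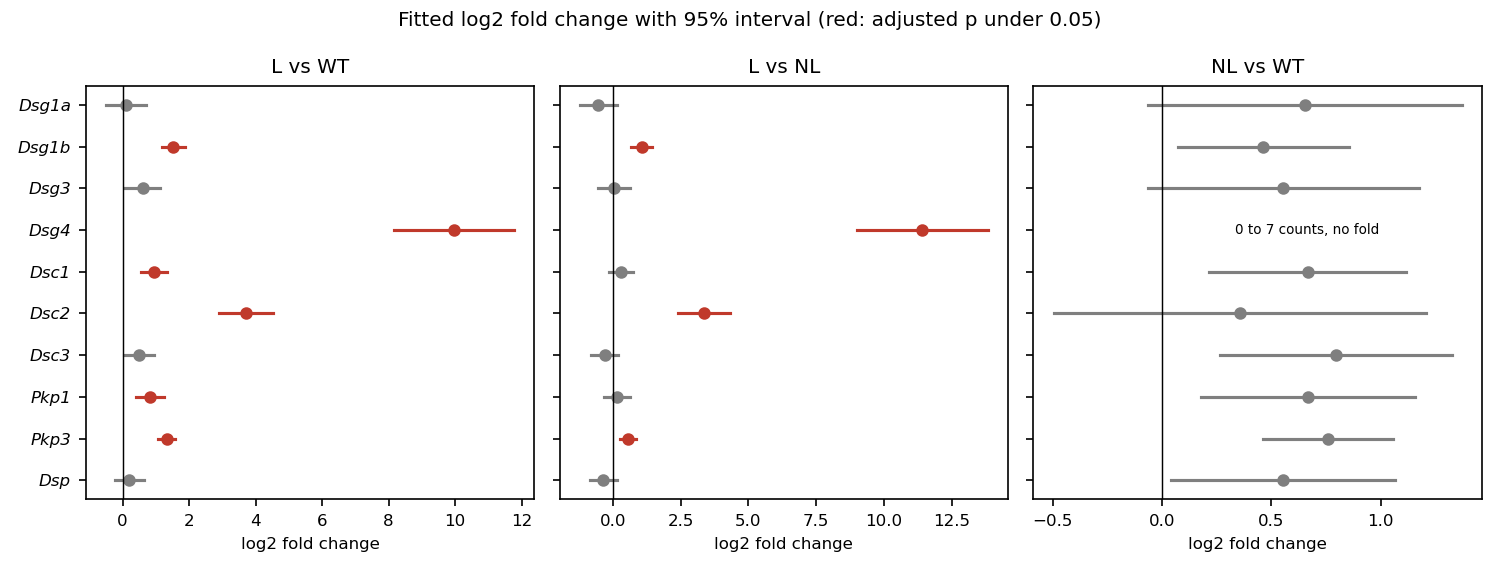
Fitted log2 fold change of each desmosome gene (point) with its 95% interval (line) for L against WT, L against NL and NL against WT skin, with called genes in red. The axes differ between panels, and *Dsg4* has no fold in NL against WT skin because no library there exceeded 7 counts. The left panel has 6 genes in red, the middle 4 and the right none.

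The comparison of L with NL skin asks what differs between both kinds of transgenic skin. *Dsg4*, *Dsc2*, *Dsg1b* and *Pkp3* rose in L skin and no member fell. Of all tested genes 25.0% were called in this comparison, 13.2% as higher and 11.8% as lower. The same 4 members were higher in every L library than in both NL libraries, as were 24.7% of all tested genes. The median of the 10 members was 0.22, beside 0.03 for all tested genes.

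For *Dsg4* the 13029 counts in L skin faced 2 counts in NL skin, a ratio of 3089 after normalisation (95% exact counting interval 855 to 25507). The fitted log2 fold change was 11.42 (adjusted p = 0.000746 from edgeR), 14.55 without NL replicate 2 and 10.67 without NL replicate 3. It was 3.35 for *Dsc2* (SE 0.42, adjusted p = 0.00175) and 1.06 for *Dsg1b* (SE 0.17, adjusted p = 0.00399). *Pkp3* had a log2 fold change of 0.57 (SE 0.13, adjusted p = 0.0139), and 0.52 to 0.63 over 18 alternative fits. Its call was lost without NL replicate 2 or NL replicate 3, fits in which fewer of all tested genes were called as well.

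The other 6 members did not pass between L and NL skin. The log2 fold change was 0.29 for *Dsc1* (95% interval -0.15 to 0.73), 0.15 for *Pkp1* (-0.32 to 0.62) and 0.05 for *Dsg3* (-0.54 to 0.65). It was -0.30 for *Dsc3* (-0.80 to 0.20), -0.35 for *Dsp* (-0.83 to 0.14) and -0.54 for *Dsg1a* (-1.22 to 0.13). *Dsc3*, at 752 and 824 CPM in NL skin, was lower in every L library, which also held for 24.7% of all tested genes.

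Between NL and WT skin no desmosome gene was called by edgeR, and neither was any other gene (0% of those tested). At an unadjusted p under 0.05 there were 6 of the 10 members and 7.67% of all tested genes. DESeq2 called 62 genes in this comparison, of which *Pkp3* was the only member (log2 fold change 0.73, adjusted p = 0.00259). For each member other than *Dsg4*, both NL values exceeded the highest WT value, as they did for 18.6% of all tested genes. Log2 fold changes of these 9 ran from 0.36 for *Dsc2* (95% interval -0.50 to 1.21) to 0.80 for *Dsc3* (0.27 to 1.33). *Pkp3* had 0.76 (SE 0.13, unadjusted p = 0.000281 and adjusted p = 0.417 from edgeR's fit across all genes). The median of these 9 was 0.65, and 0.60 with *Dsg4* included, beside -0.001 for all tested genes and 0.72 for the epithelial identity list. *Dsg4* had no more than 7 counts in any of these libraries, and no fold is given for it.

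The makeup of each cadherin family can be read within a library, where scaling between libraries plays no part. Of the summed CPM per kb of the 4 desmogleins, *Dsg1a* made up 88.9% ± 1.39 (SD, n = 3) of WT, 89.9% ± 1.10 (n = 2) of NL and 74.6% ± 5.94 (n = 4) of L desmoglein RNA. *Dsg1b* took 4.28% ± 0.515, 3.78% ± 0.45 and 9.75% ± 1.54 in the same order. The share of *Dsg3* was 6.77% ± 0.876, 6.36% ± 0.648 and 8.01% ± 1.65. *Dsg4* made up at most 0.0256% of the desmogleins in any WT or NL library and between 2.59% and 14.6% in the L libraries. Among the desmocollins, the share of *Dsc2* was 0.960% ± 0.190 (WT), 0.721% ± 0.0222 (NL) and 7.11% ± 2.98 (L). *Dsc3* held 60.8% ± 1.69, 63.3% ± 2.41 and 49.6% ± 2.68, so the L libraries, from 46.9% to 52.4%, all lay below the other 5. *Dsc1* held 38.3% ± 1.5, 36.0% ± 2.44 and 43.3% ± 5.04.

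**Figure D4:**
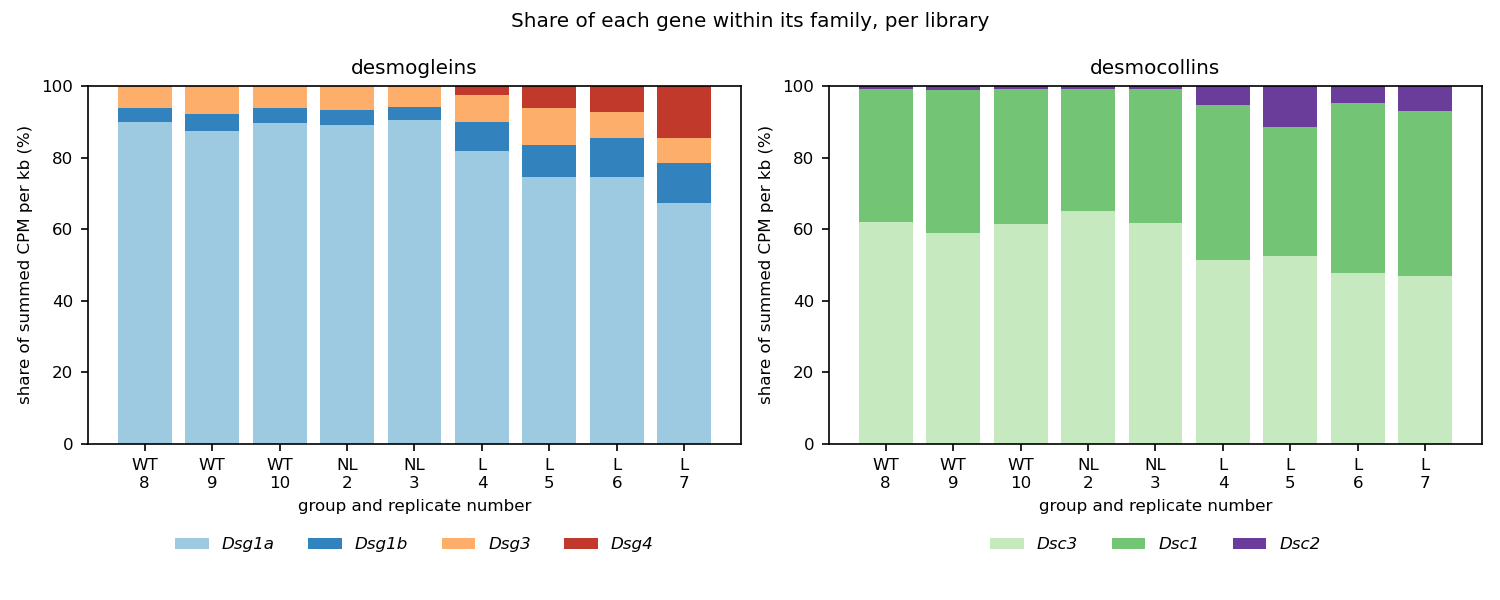
Share of each gene in the summed CPM per kb of the 4 desmogleins (left) and the 3 desmocollins (right), 1 stacked bar per library that adds to 100%. *Dsg4* takes between 2.59% and 14.6% of the desmogleins in the 4 L bars and is too thin to see in the WT and NL bars, and *Dsc2* widens from at most 1.17% in those bars to between 4.8% and 11.4% of the desmocollins.

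Between members, 6 log2 ratios were tested by an exact two-sided permutation test over libraries, in L against WT and L against NL skin (12 tests). With 4 against 3 and 4 against 2 libraries the smallest p that this test can give is 0.0571 and 0.133, so none could pass. The ratio of *Dsg4* to *Dsg3* was 9.95 higher in L than in WT skin on the log2 scale, that of *Dsc2* to *Dsc3* 3.11 higher, that of *Pkp1* to *Dsp* 0.62 higher and that of *Pkp3* to *Pkp1* 0.52 higher. The ratio of *Dsc3* to *Dsc1* was 0.67 ± 0.10 in WT and 0.20 ± 0.25 in L skin. These 5 ratios had no overlap between the groups and reached the smallest p (adjusted p = 0.137 from the exact test). The ratio of *Dsg3* to *Dsg1a* and *Dsg1b* together was -3.79 ± 0.19 (n = 3) in WT and -3.42 ± 0.28 (n = 4) in L skin, which overlapped (exact p = 0.171). Against NL skin all 6 ratios were separated, at the smallest p of the exact test (0.133, adjusted p = 0.145).

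Since the summed level of the epithelial identity genes differed between libraries, the fit was repeated with libraries scaled to the geometric mean of the 12 epithelial identity genes in place of TMM. That scaling moved the median log2 fold change of all tested genes in L against WT skin from 0.06 to -0.55, and the share of called genes that were higher from 53.2% to 16.8%. Of all tested genes, 7.81% were called higher and 38.6% lower on this scale. In NL against WT skin it moved the median from -0.001 to -0.65. On this scale *Dsg4* (9.45), *Dsc2* (3.04), *Dsg1b* (0.89, adjusted p = 0.00265 from edgeR) and *Pkp3* (0.71, adjusted p = 0.00987) were still called higher in L than in WT skin. *Dsc1* (0.33, adjusted p = 0.161) and *Pkp1* (0.17, adjusted p = 0.465) were no longer called. The values of *Dsg1a* (-0.55, adjusted p = 0.0511), *Dsp* (-0.43, adjusted p = 0.0793), *Dsc3* (-0.15) and *Dsg3* (-0.065) turned negative, as any value smaller than this common shift had to. The median of the 10 members was 0.25 in L against WT skin and -0.04 in NL against WT skin. *Pkp3* was not called against NL skin (0.60, adjusted p = 0.0927). In that comparison 7.21% of all tested genes were called higher on this scale, beside 13.2% under TMM.

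**Figure D5:**
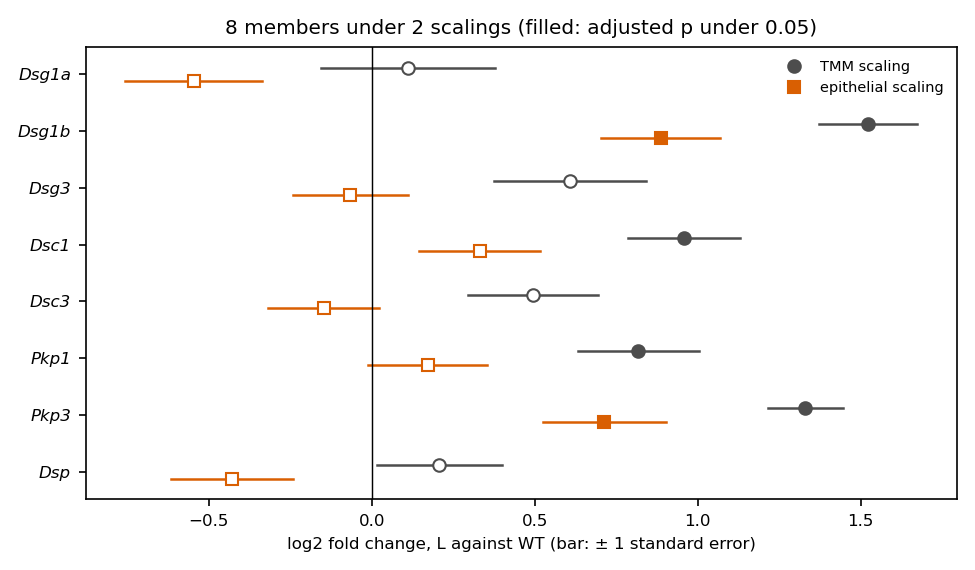
Log2 fold change in L against WT skin of the 8 desmosome genes with changes under 2 on this scale, under TMM scaling (circles) and under scaling to epithelial identity genes (squares), with bars of ± 1 SE and filled symbols for called genes. Each gene moves to the left by about the same distance, so the genes nearest 0 before (*Dsg1a*, *Dsg3*, *Dsc3* and *Dsp*) cross it, and *Dsc1* and *Pkp1* lose their call.

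The rest of the desmosome was looked at through 10 further genes. In L against WT skin, 7 rose and 1 fell, in L against NL skin 1 rose and 1 fell, and the median of the list was 0.70 and 0.11. Over all tested genes 43.1% were called (23.0% higher, 20.2% lower) in the first comparison and 25.0% (13.2% higher, 11.8% lower) in the second, and the counts of the lists that follow are read beside these shares. The largest rises over WT skin were those of *Dsg1c*, the third desmoglein 1 copy (log2 fold change 3.29, SE 0.52, adjusted p = 0.00144 from edgeR, and 4.07 without WT replicate 9), and *Cdsn*, the corneodesmosin of the cornified layer (1.12, SE 0.21, adjusted p = 0.00324). *Dsg1c* was at 0.148 to 0.570 CPM in WT and 1.68 to 3.82 CPM in L skin, and its values rest on the split of reads between the copies. *Pkp4*, a plakophilin also found at adherens junctions, was the one that fell (-0.43, SE 0.10, adjusted p = 0.00748). Scaled to epithelial genes, *Dsg1c* and *Cdsn* were called higher and *Pkp4* lower as before, and 2 of the 10 were called higher and 3 lower.

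Of the 7 keratins that desmosomes of the epidermis hold, 3 rose and 1 fell in L against WT skin, beside 43.1% called among all tested genes. *Krt1*, of the suprabasal layers, had a log2 fold change of 1.90 (adjusted p = 0.00529 from edgeR). *Krt2*, of the upper layers, was at 32.5 CPM in L replicate 4 but at 0.617, 1.70 and 3.01 CPM in the other L libraries, and at 0.214 to 0.775 CPM in WT skin, so the groups overlapped. Its log2 fold change of 4.23 (adjusted p = 0.0467) came down to 1.82 without L replicate 4 (adjusted p = 0.0529), and its call was lost in 7 of the 9 fits that left out 1 library and on the epithelial scale (adjusted p = 0.0776). *Krt15*, of the basal layer and the hair follicle bulge, fell by 0.93 on the log2 scale (adjusted p = 0.0447), and this call was lost in 6 of those 9 fits (adjusted p up to 0.123). On the epithelial scale, where 38.6% of all tested genes were called lower, it was -1.62 (adjusted p = 0.000443 from edgeR). Against NL skin under TMM it was -1.66 (adjusted p = 0.0115), lower in every L library. The median of these keratins was 0.48 and turned to -0.21 on the epithelial scale.

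Adherens junction genes, whose cadherins work beside desmosomes, had 6 of 11 called higher and 1 lower against WT skin, led by *Cdh3*, P-cadherin (log2 fold change 2.01, adjusted p = 0.000312 from edgeR), and *Nectin2* (1.22, adjusted p = 0.000111), while *Nectin3* was lower (-0.71, adjusted p = 0.00144). On the epithelial scale 2 were called higher and 1 lower. Tight junction genes, which seal the upper epidermis, had 5 of 10 called higher and none lower, led by *Cldn4* (1.95, adjusted p = 5.57e-05), but on the epithelial scale 4 were called higher and 3 lower, and the median turned from 0.49 to -0.13. Hemidesmosome genes, which anchor basal cells to the basement membrane, had no rise and 3 falls among 9, with *Dst* (-1.40, adjusted p = 0.00445) and *Plec* (-1.27, adjusted p = 0.000466) the largest. On the epithelial scale 8 of the 9 were called lower, where 38.6% of all tested genes were. *Dst* and *Plec* also have forms in muscle, whose marker genes fell as given above, and the part of muscle in their values was not tested.

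Genes listed as desmoglein-cleaving proteases and their inhibitors had 8 of 10 called higher and none lower in L against WT skin, with a median of 1.21. The protease inhibitor *Spink5* was at 521 to 648 CPM in WT and 281 to 806 CPM in L skin, so its groups overlapped. Those named here are kallikreins. *Klk6* had a log2 fold change of 4.18 (adjusted p = 0.000713 from edgeR). *Klk14* (adjusted p = 0.000757) had 2, 0 and 0 counts in WT libraries, all under the floor, and 54 to 107 counts in L libraries, a ratio of 92.7 for the pooled counts after normalisation (95% exact counting interval 25.4 to 769). Against NL skin 7 were called higher, and 5 in each comparison on the epithelial scale. Transcription factors of the epidermis had 6 of 10 called higher and none lower, with a median of 0.75. *Hoxc13*, a regulator of hair keratins (4.79, adjusted p = 6.80e-05), and *Foxn1*, the gene mutated in nude mice (3.04, adjusted p = 0.000528), rose most, and both were called on the epithelial scale as well, where 3 were called. For comparison, the 12 epithelial identity genes had 7 called higher and none lower, with a median of 0.72. That list shares genes with the lists for keratins, adherens junctions, hemidesmosomes and transcription factors.

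As a description of how each member varied, the 2 other genes with the most similar log2 CPM over the 9 skin libraries were found by Pearson correlation. These libraries form 3 groups, so a high value mostly restates a shared difference between groups. *Dsg4* was nearest to the hair keratin *Krt35* (0.992) and to *Creld2* (0.990), and *Dsc2* to *Gm10153* (0.996) and *Krtap5-3* (0.995), a keratin-associated protein gene. *Pkp1* was nearest to *Jup* (0.981), which encodes plakoglobin, and to *Hbp1* (0.970). *Pkp3* was nearest to *Def6* and *Rab25* (both 0.993), *Dsg1b* to *Rbp2* (0.994) and *Gm43042* (0.986), and *Dsc1* to *Ets2* (0.989) and *Csnk2b* (0.976). The members that were not called had *Slc6a14* (0.990) and *Dmkn* (0.970) for *Dsg1a*, *Atp6v0a4* (0.993) and *Gm6557* (0.978) for *Dsg3*, *Tyro3* (0.978) for *Dsc3*, and *Acap3* (0.944) and *Lrch1* (0.941) for *Dsp*.

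Outside skin, the members were read in the inguinal lymph nodes. These 12 libraries, 3 in each of 4 groups, came from WT mice and *Ifnk* TG mice, either untreated or exposed to UVB, and held between 27599809 and 36428435 counts. *Pkp3* was present in all of them, with 991 to 1615 counts and a median of 41.5 CPM. *Dsc3* had 27 to 314 counts, *Dsc2* 3 to 57 and *Dsp* 6 to 45. *Dsg1a* did not exceed 15 counts nor *Dsg1b* 8, *Dsg3* and *Pkp1* stayed at or below 3, *Dsc1* at or below 1, and *Dsg4* had 0 counts in every node library. The skin and node tables were not scaled together, and no comparison between tissues was tested.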

How the data were processed

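Bulk RNA was sequenced from 9 skin and 12 lymph node libraries of WT and *Ifnk* TG mice. Per the submitters' processing notes and the study's methods, the authors trimmed reads of poly-A libraries (cutadapt 4.8), checked them with FastQC 0.11.8 and MultiQC 1.20, aligned them to GRCm38 with STAR 2.7.8a and estimated counts per gene with RSEM 1.3.3. The deposited values are expected counts, already whole numbers and not normalised. The annotation release is not given in the sources used here. Reads of near-identical genes are divided by RSEM's model, which bears on the *Dsg1* copies.

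The analysis used R 4.3.3. The expression filter was edgeR 4.0.16's filterByExpr with groups (minimum count 10, total 15), which left 19101 skin genes, and libraries were scaled by TMM. One quasi-likelihood model (robust) of all 9 skin libraries gave each contrast, with Benjamini-Hochberg adjustment over all tested genes and a threshold of 0.05. The study's methods name DESeq2, used here as an alternative (DESeq2 1.42.0). SEs derive from the F statistic. Log2 ratios between members use counts per kb with 0.5 counts added. Lymph node values are counts and CPM without a test. Exon lengths and positions came from GENCODE M21 by gene identifier. Skin libraries held 40499078 to 56511276 counts. There are no molecular identifiers, so floors (3 counts) and counting intervals (95%) cover counting error only.

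Counts were simulated for L against WT skin with 200 changed genes of 18607. There edgeR recovered 32.3% of 2-fold and 64.3% of 4-fold changes, and 4.04% of its calls were false. In the data 43.1% of tested genes were called, a far larger share, so these rates need not carry over.

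Members and gene lists were chosen with earlier results of these data known, so no p is given over a list. Genes named are each member, up to 2 of the largest rises and falls among the called genes of each pathway list in L against WT skin, and the 2 genes most similar to each member, except 2 genes that are not reported here. Alternatives were DESeq2, RLE and upper-quartile scaling, no filter, only the groups compared, scaling to epithelial identity genes, hair, muscle and fat genes left out (87 genes), *Xist* as a covariate since labels give no sex, an adjusted p under 0.01, the *Dsg1* copies summed, counts in place of counts per kb for the ratios, and each library left out (for named list genes too, added after seeing the data). No DNA or protein sequence is printed.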

Additional observations from a re-analysis of the deposited data

Results flagged for a closer look

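In L skin, the group with 4 libraries, 34 sets of values were searched for a library far from the other 3 (a gap to the nearest of them above Dixon's 95% critical share of the range), and 4 were found. Chance alone gives about 1 in 20, and these sets share libraries and genes. *Dsc2* was at 154.758 CPM in L replicate 5, beside 62.7 to 75.5 CPM in the other 3 L libraries. In the same library the log2 ratio of *Dsg3* to *Dsg1a* and *Dsg1b* together was -2.9957, beside -3.59 to -3.50 in the others, and the summed level of the 8 adipocyte genes was 831.636 CPM, beside 3901 to 4342 CPM. The summed level of the 11 adherens junction genes was 2035.89 CPM in L replicate 4, beside 2403 to 2443 CPM in the others. L replicate 5 also had the lowest muscle sum (31.2 CPM). Without it, 6 members were called in L against WT and 4 in L against NL skin, as with it. Of all tested genes 21.2% and 12.5% were then called higher.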

How the results depend on the processing

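The number of called members was 6 in L against WT, 4 in L against NL and 0 in NL against WT skin. Leaving out 1 library gave 6 to 8 in L against WT skin, where 17.2% to 23.1% of all tested genes were called higher. In L against NL skin a call was lost only where 1 NL library was left, and calls over all tested genes then became fewer too. Still no member was called in NL against WT skin. With 1 NL library left, its spread was assumed to be that of the other groups. DESeq2 called 1 member in NL against WT skin. Scaling to epithelial identity genes reversed *Dsg1a* (-0.55), *Dsg3* (-0.065), *Dsc3* (-0.15) and *Dsp* (-0.43) in L against WT skin, and *Dsg1b* (-0.19), *Dsg3* (-0.092), *Dsc2* (-0.30) and *Dsp* (-0.10) in NL against WT skin, none of them called in either fit. That scaling moves every gene by about the same amount, which sets how many small values turn negative. Summing the *Dsg1* copies reversed *Dsg1b* in L against NL skin (-0.46), since *Dsg1a* dominates the sum, which does not test *Dsg1b*. Leaving out 1 library gave *Dsg1a* in L against WT skin -0.091 to 0.29, negative without L replicate 4 or WT replicate 9, and *Dsg3* in L against NL skin -0.076 to 0.24, negative without L replicate 4 or 5 or NL replicate 2. The cause was not tested. No called member changed sign other than by that sum.

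With 1 library left out, the difference in log2 ratio between L and WT skin ranged from 9.12 to 11.00 for *Dsg4* to *Dsg3*, 2.89 to 3.29 for *Dsc2* to *Dsc3*, 0.52 to 0.72 for *Pkp1* to *Dsp*, 0.42 to 0.59 for *Pkp3* to *Pkp1*, 0.24 to 0.49 for *Dsg3* to *Dsg1a* and *Dsg1b*, and -0.58 to -0.40 for *Dsc3* to *Dsc1*. Against NL skin the ranges were 10.26 to 12.36, 3.34 to 3.71, 0.31 to 0.65, 0.33 to 0.50, 0.33 to 0.58 and -0.72 to -0.50. No paired analysis was possible because the labels do not say whether NL and L libraries share a mouse. On simulated counts for L against WT skin 32.3% of 2-fold and 64.3% of 4-fold changes were recovered, so changes of either size were missed there. That simulation changed 200 of 18607 genes drawn at random, whereas 43.1% of tested genes were called in the data. Its rates therefore need not hold for the members. The comparisons with 2 NL libraries were not simulated. For the genes of the other lists named in L against WT skin, each library was left out as a check chosen after seeing the data, and *Krt2* and *Krt15* were the only ones to lose their call.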
